A study of Mus musculus with 8 samples.

Results

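Bone morphogenetic protein (BMP) genes were followed in fibro/adipogenic progenitors (FAPs), the interstitial cells of skeletal muscle that can give rise to fat and fibrotic tissue. The 9 genes were taken by symbol from their roles in the pathway: the ligands Bmp4 and Bmp6, the receptors Bmpr1a and Bmpr2, the secreted antagonists Grem1 and Chrdl1, and the targets Id1, Id2 and Id3, out of 31053 genes counted. All 9 symbols were matched to exactly 1 Ensembl gene.

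FAPs came from hind limb muscles of *mdx* mice (strain C57BL/10ScSn-Dmdmdx/J, 45 days of age), which lack functional dystrophin and model Duchenne muscular dystrophy. They were sorted as CD45-, CD31- and Integrin alpha-7-negative, SCA-1-positive cells, and split by surface SCA-1 into SCA1-High-FAPs and SCA1-Low-FAPs, with 4 samples of each cell state out of 4 mice. Both cell states carry the *mdx* allele and were cultured for 5 days in serum-containing growth medium (GM), and RNA was taken before any adipogenic induction. Wild type cells and other media were not analysed here. The study compared the cell states to find how their transcripts differ before differentiation, with SCA1-Low-FAPs as the control.

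BMPs are secreted signals of the TGF-beta family. A ligand such as BMP4 brings together a type I receptor (BMPR1A) and a type II receptor (BMPR2), the receptors phosphorylate Smad1, Smad5 and Smad9, and these enter the nucleus with Smad4. Id1, Id2 and Id3 are classical direct targets, and their proteins hold back basic helix-loop-helix transcription factors. Outside the cell, Gremlin 1 (Grem1) and Chordin-like 1 (Chrdl1) bind BMPs and keep them from their receptors. In muscle and fat, BMPs are known to act on progenitor growth and on the choice between adipogenic and osteogenic fates.

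The 3′ libraries held between 1880561 and 3985656 counts on genes per sample, and a gene with 3 counts, the least taken as measurable, stood at 0.753 to 1.60 CPM (CPM is a count scaled to a common library size by edgeR's TMM method, and this limit covers counting error only). About 1 read is made per transcript whatever its length, so CPM needs no length correction between genes. Reads at several positions or on no gene were not counted, and how far this differs between genes was not tested. Comparisons of level between genes carry this limit. In both cell states all 5 FAP markers were detected, while the myogenic Pax7, Myf5, Myod1 and Myog and the leucocyte Adgre1, Itgam and Cd3e were at 0 in all 8 samples. Ly6a, which encodes SCA-1, was higher in the cells sorted as low after the 5 days of culture (log2 fold change 0.61, adjusted p = 0.0341). Its mRNA after culture thus did not follow the surface level used in the sort, which was taken before the culture. The paper reports that the surface SCA-1 of the sorted cell states came to overlap after a longer expansion in culture. Thy1 was also called higher in SCA1-Low-FAPs (0.67, adjusted p = 0.0105), Dcn was called higher in SCA1-High-FAPs (-2.08, adjusted p = 0.0167), and Pdgfra and Cd34 were not called. Replicate 3 of SCA1-Low-FAPs had the highest adipocyte and the lowest cell cycle marker sum of its cell state.

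Log2 fold changes are above 0 where SCA1-Low-FAPs had more mRNA, and a gene was called when edgeR's adjusted p was under 0.05 and the log2 fold change was beyond 0.5 in either direction. Of the 9 members, 8 had enough counts to be tested and 2 were called, Grem1 as higher in SCA1-Low-FAPs and Chrdl1 as higher in SCA1-High-FAPs. Over all 10181 tested genes, 3.32% were called with more mRNA in SCA1-Low-FAPs and 4.36% with more in SCA1-High-FAPs, or 7.68% in either direction. The ligand Bmp4, both receptors and the 3 Id targets were not called. The median size of the log2 fold change was 0.22 over the 8 tested members and 0.30 over all tested genes. In bulk RNA, fewer cells that make a transcript and less transcript per cell cannot be told apart.

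Before the values, the stretches that precede Grem1 and Bmp4 are shown, because Grem1 was the called antagonist that had a RefSeq promoter entry and Bmp4 encodes a ligand that its protein binds. Each is the 250 bases before the RefSeq start, on the minus strand of GRCm38.p6, at chr2:113758649-113758898 for Grem1 and chr14:46390670-46390919 for Bmp4. Capitals mark matches on either strand to GGCGCC and GTCTG, letters that BMP and TGF-beta Smads are known to bind, and to CANNTG, the E box of basic helix-loop-helix factors.
Grem1: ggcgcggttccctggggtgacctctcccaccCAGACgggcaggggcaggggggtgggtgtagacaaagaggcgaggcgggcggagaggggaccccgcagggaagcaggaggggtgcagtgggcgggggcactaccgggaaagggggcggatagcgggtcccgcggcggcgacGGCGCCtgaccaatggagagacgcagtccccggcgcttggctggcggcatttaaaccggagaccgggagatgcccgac
Bmp4: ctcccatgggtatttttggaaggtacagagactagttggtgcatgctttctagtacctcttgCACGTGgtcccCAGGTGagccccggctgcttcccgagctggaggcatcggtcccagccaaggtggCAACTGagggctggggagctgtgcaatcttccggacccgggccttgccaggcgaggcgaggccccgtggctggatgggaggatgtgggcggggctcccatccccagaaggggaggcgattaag

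The Grem1 stretch held 1 GGCGCC, which starts 78 bases before the gene's start, and 1 match to GTCTG, which starts 219 bases before it, with no E box. Bmp4 held neither Smad motif and 3 E boxes, which start 188, 177 and 123 bases before its start. Among the 7 members with an entry, GGCGCC stood in 4 (Grem1, Bmpr1a, Bmpr2 and Id2), against 9.6% of all 32851 RefSeq promoters of the same length. The stretches of Bmpr1a, Bmpr2 and Id2 lie within the gene as GENCODE annotates it, as do those of Bmp6 and Id3, since RefSeq places the start farther in. The 7 stretches are rich in G and C, at 62.8% to 78.8% of bases, and the same measure over all promoters was not computed. Only the first entry of each member was used, while the shares of all promoters count every entry. GTCTG stood in 3 of the 7 (Grem1, Bmp6 and Id3) against 42.2% of all, and CANNTG in 3 of the 7 (Bmp4, Bmp6 and Id2) against 66.2%. None of the capitalised matches overlap, the motifs were picked after several others had been looked at, and a match is not a bound site.

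**Figure D1:**
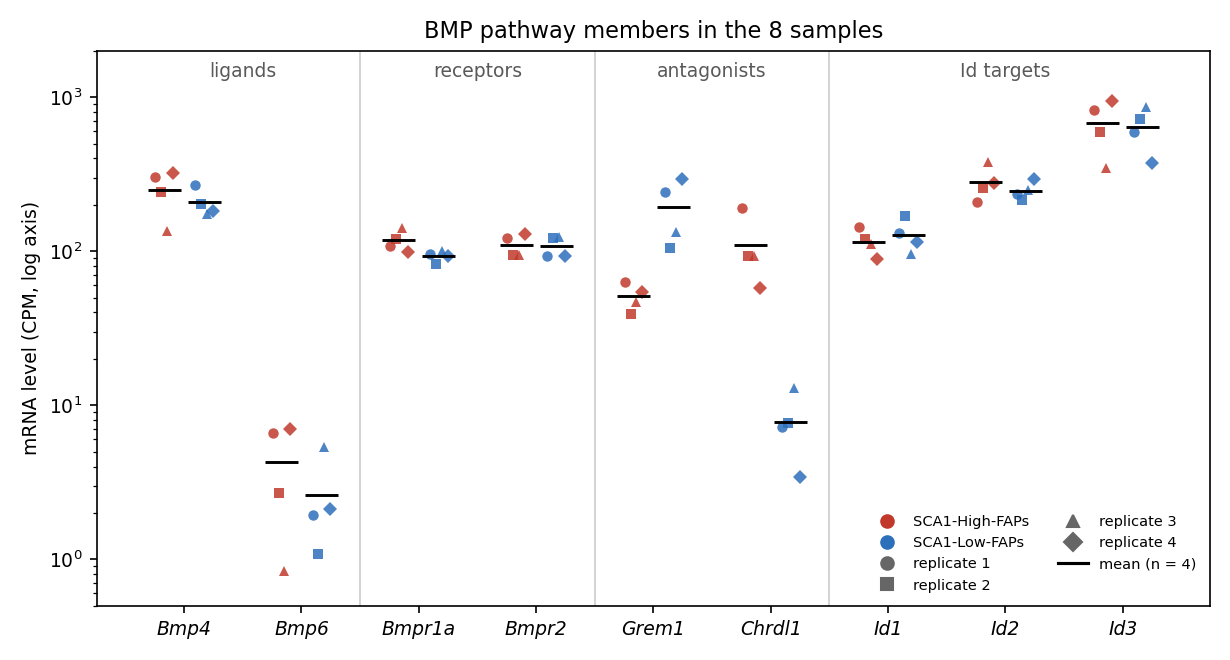
Level of each of the 9 genes in CPM (log axis) in the 8 samples, with SCA1-High-FAPs in red, SCA1-Low-FAPs in blue, a symbol for each replicate number and a black line at the mean of 4 samples. The cell states separate without overlap at Grem1 (39.3 to 63.1 against 106 to 296 CPM) and at Chrdl1 (57.6 to 192 against 3.43 to 13.0 CPM), and overlap at the other 7 genes. The share of all tested genes that separate in this way was not computed.

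Grem1 (ENSMUSG00000074934, chromosome 2, 113746164 to 113758646, minus strand, GRCm38) encodes a cystine-knot protein that binds BMP2, BMP4 and BMP7. In SCA1-High-FAPs, replicates 1 to 4 had 63.1, 39.3, 46.8 and 54.3 CPM. In SCA1-Low-FAPs they had 241, 106, 132 and 296 CPM. All 4 SCA1-Low-FAPs samples were above all 4 SCA1-High-FAPs samples, with replicates 1 and 4 well above the other two. The means were 50.9 ± 10.2 and 194 ± 89.9 CPM (SD, n = 4), and the test gave a log2 fold change of 1.93 ± 0.30 (SE, adjusted p = 0.00247), or 3.82-fold with a 95% interval of 2.42 to 6.02. When each sample was left out in turn, Grem1 was called in all 8 fits, with log2 fold changes of 1.64 to 2.14.

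Chrdl1 (ENSMUSG00000031283, chromosome X, 143285674 to 143394262, minus strand) encodes a chordin family protein with cysteine-rich repeats that bind BMP4. Its level was 192, 93.6, 92.7 and 57.6 CPM in replicates 1 to 4 of SCA1-High-FAPs. The corresponding levels in SCA1-Low-FAPs were 7.25, 7.62, 13.0 and 3.43 CPM, from 13 to 41 counts per sample. The lowest SCA1-High-FAPs sample was thus above the highest SCA1-Low-FAPs sample. Chrdl1 averaged 109 ± 57.9 and 7.83 ± 3.94 CPM (SD, n = 4), with a log2 fold change of -3.80 ± 0.45 (SE, adjusted p = 0.000672, 95% interval -4.77 to -2.82), which is 13.9-fold. It was called in all 8 fits that left a sample out, at -4.24 to -3.37.

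Within a cell state, the samples with more of one antagonist were not always those with less of the other. Replicate 1 of SCA1-High-FAPs had the highest level of both genes in its cell state. Replicate 4 of SCA1-Low-FAPs combined the highest Grem1 level of all samples with the lowest Chrdl1 level of all. The ratio of Grem1 to Chrdl1 was 0.328, 0.420, 0.505 and 0.943 in SCA1-High-FAPs and 33.3, 13.9, 10.2 and 86.2 in SCA1-Low-FAPs, so that Chrdl1 was the more abundant antagonist in all samples of the first and Grem1 in all samples of the second. The sum of both antagonists, in contrast, overlapped between the cell states, at 112 to 255 CPM in SCA1-High-FAPs against 113 to 299 CPM. Relative to Bmp4, this sum was 0.350 to 1.03 in SCA1-High-FAPs and 0.559 to 1.63 in SCA1-Low-FAPs. Both ratios were formed after the gene levels had been seen and were not tested.

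**Figure D2:**
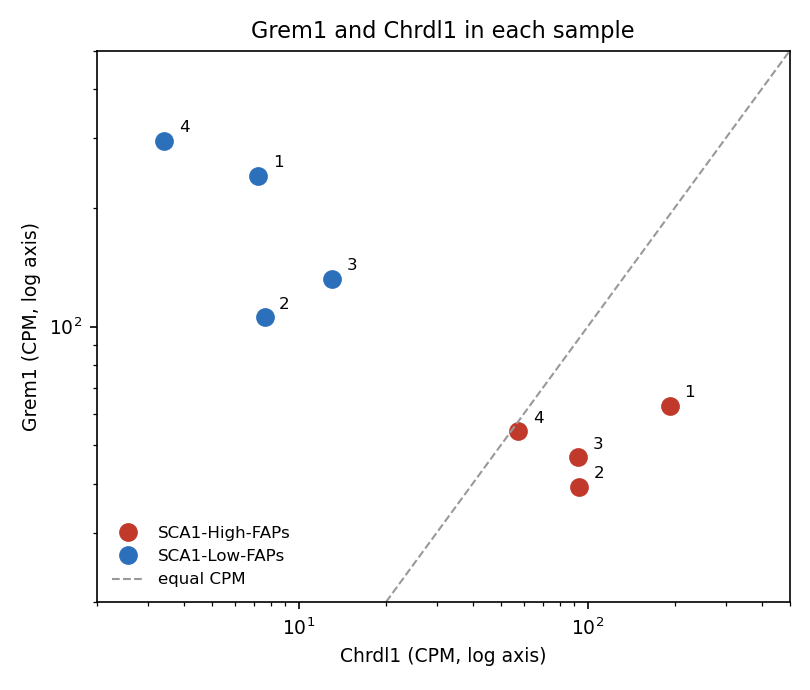
Grem1 against Chrdl1 in CPM (both axes log), 1 point per sample labelled with its replicate number, red for SCA1-High-FAPs and blue for SCA1-Low-FAPs. All 4 SCA1-Low-FAPs points lie above the dashed line of equal CPM, with ratios of 10.2 to 86.2, and all 4 SCA1-High-FAPs points lie below it, with ratios of 0.328 to 0.943.

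Some genes of other marker lists also differed between the cell states. Of 6 adipocyte markers, 4 were tested and 2 were called (Adipoq and Lipe), both higher in SCA1-High-FAPs, and Lep was at 0 in all samples. The adipocyte markers summed to 949 to 4497 CPM in the SCA1-High-FAPs samples and to 116 to 597 CPM in the others. As for Chrdl1, the highest sum in SCA1-High-FAPs was in replicate 1 and the lowest in replicate 4, and in SCA1-Low-FAPs the highest was in replicate 3 and the lowest in replicate 4. Fabp4, which was not called (edgeR adjusted p = 0.101), made up most of both highest sums, at 3391 and 508 CPM. In SCA1-Low-FAPs, Fabp4, Adipoq and the barely detected Cidec were highest in replicate 3, but Plin1 and Lipe in replicate 2. All 8 cell cycle markers were called higher in SCA1-Low-FAPs, and summed to 574 to 802 CPM in SCA1-High-FAPs against 1141 to 1692 CPM. Of 5 pericyte and smooth muscle markers, the 2 tested (Cspg4 and Myh11) were called higher in SCA1-Low-FAPs, and the 5 summed to 12.7 to 32.0 CPM in SCA1-High-FAPs against 21.6 to 63.2 CPM. Of 3 tested tendon and cartilage markers, Col2a1 was called higher in SCA1-Low-FAPs, while Tnmd (log2 fold change -1.55, adjusted p = 0.0530) and Sox9 (-0.31) were not called. All 6 summed to 312 to 447 CPM in SCA1-High-FAPs against 295 to 390 CPM, and Sox9 alone averaged 367 and 297 CPM. The untested Scx and Mkx had 0 and 11 counts in SCA1-High-FAPs against 30 and 34, and Acan had none. S100b was the 1 tested Schwann marker and was not called, and no endothelial, leucocyte or myogenic marker had enough counts to be tested. The part of these markers in the Grem1 and Chrdl1 differences was not tested.

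Bmp4 (ENSMUSG00000021835, chromosome 14, 46383520 to 46390669, minus strand) encodes a ligand that can steer mesenchymal progenitors towards bone or fat. SCA1-High-FAPs had 303, 243, 135 and 320 CPM in replicates 1 to 4. SCA1-Low-FAPs had 270, 203, 173 and 183 CPM. The ranges overlapped, and replicate 3 of SCA1-High-FAPs was the lowest of all 8 samples. The means were 250 ± 83.6 and 207 ± 43.6 CPM (SD, n = 4), and the log2 fold change of -0.27 ± 0.23 (SE) had an adjusted p of 0.559 and a 95% interval of -0.77 to 0.23. Bmp4 made up 85.5% to 91.0% of the summed CPM of 13 listed BMP and GDF ligands in SCA1-High-FAPs and 77.5% to 89.0% in SCA1-Low-FAPs.

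Bmp6 (ENSMUSG00000039004, chromosome 13, 38345107 to 38500302, plus strand), the ligand best known for the control of hepcidin and iron, was close to the limit of these libraries. It had 6.59, 2.71, 0.835 and 6.97 CPM in SCA1-High-FAPs against 1.93, 1.09, 5.39 and 2.11 CPM in SCA1-Low-FAPs, from 2 to 19 counts per sample. The cell states overlapped over almost their whole range. Bmp6 had too few counts for the main test. With no filter beyond 1 count, edgeR gave a log2 fold change of -0.64 ± 0.85 (SE, adjusted p = 0.715), and a difference was not detectable at this depth. The exons of Bmp6 share 224 bases with Txndc5 on the opposite strand (2443 counts over the 8 samples), and the strand setting of the counting is not given in the sources used here.

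Bmpr1a (ENSMUSG00000021796, chromosome 14, 34410734 to 34503341, minus strand) encodes a type I receptor used by BMP4. Its levels were 108, 121, 142 and 99.0 CPM in SCA1-High-FAPs. In SCA1-Low-FAPs they were 95.7, 82.2, 100 and 93.2 CPM. Only replicate 4 of SCA1-High-FAPs lay within the range of the other cell state. The means were 117 ± 18.8 and 92.8 ± 7.65 CPM (SD, n = 4), and the log2 fold change of -0.34 ± 0.17 (SE) was not called (adjusted p = 0.252, 95% interval -0.69 to 0.01).

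Bmpr2 (ENSMUSG00000067336, chromosome 1, 59763400 to 59879014, plus strand) encodes the BMP type II receptor. SCA1-High-FAPs had 122, 94.0, 93.9 and 130 CPM and SCA1-Low-FAPs had 93.3, 121, 124 and 93.7 CPM. Each cell state thus held a pair of samples near 94 CPM and a pair above 120 CPM. The log2 fold change was -0.03 ± 0.18 (SE, adjusted p = 0.956, 95% interval -0.40 to 0.34).

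Id1 (ENSMUSG00000042745, chromosome 2, 152736251 to 152737410, plus strand) is the target most often used as a readout of BMP signalling. It stood at 143, 119, 111 and 88.7 CPM in SCA1-High-FAPs, against 131, 169, 96.1 and 114 CPM in SCA1-Low-FAPs. The lowest sample was in SCA1-High-FAPs and the highest in SCA1-Low-FAPs, with the rest interleaved. The log2 fold change was 0.14 ± 0.19 (SE, adjusted p = 0.743, 95% interval -0.27 to 0.55).

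Id2 (ENSMUSG00000020644, chromosome 12, 25093799 to 25097140, minus strand), which is also known as a factor that favours adipogenesis, had 208, 255, 380 and 277 CPM in SCA1-High-FAPs. In SCA1-Low-FAPs it had 234, 213, 249 and 294 CPM. The range of SCA1-Low-FAPs lay wholly inside that of SCA1-High-FAPs. The log2 fold change was -0.18 ± 0.18 (SE, adjusted p = 0.627, 95% interval -0.55 to 0.20).

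Id3 (ENSMUSG00000007872, chromosome 4, 136143497 to 136145755, plus strand) was the most abundant member by mean level in both cell states. SCA1-High-FAPs had 828, 598, 344 and 942 CPM and SCA1-Low-FAPs had 593, 726, 865 and 375 CPM. In each cell state a single sample, replicate 3 of SCA1-High-FAPs and replicate 4 of SCA1-Low-FAPs, was well below the other 3. The means were 678 ± 265 and 640 ± 208 CPM (SD, n = 4), with a log2 fold change of -0.08 ± 0.33 (SE, adjusted p = 0.924). Its 95% interval of -0.83 to 0.66 was the widest of the 7 tested members other than Chrdl1. The 3 Id genes together summed to 835 to 1308 CPM in SCA1-High-FAPs and to 784 to 1210 CPM in SCA1-Low-FAPs, with Id3 contributing 41.2% to 72.0% and 47.9% to 71.5%.

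In order of mean level, SCA1-High-FAPs had Id3, Id2, Bmp4, Bmpr1a, Id1, Bmpr2, Chrdl1, Grem1 and Bmp6. Only the last steps held in every sample of that cell state, as Chrdl1 was above Grem1 and Grem1 above Bmp6 in 4 of 4. The neighbours from Id3 down to Chrdl1 were in this order in 2 or 3 of 4 samples. Bmpr1a, Id1, Bmpr2 and Chrdl1 lay within 109 to 117 CPM on average. In SCA1-Low-FAPs the order was Id3, Id2, Bmp4, Grem1, Id1, Bmpr2, Bmpr1a, Chrdl1 and Bmp6, so that Grem1 stood just below the ligand Bmp4. The mean of Chrdl1 was below those of both receptors in both cell states. Id3 was above Id2, Bmpr1a above Chrdl1 and Chrdl1 above Bmp6 in 4 of 4 SCA1-Low-FAPs samples. The other neighbours kept their order in 3 of 4.

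The members did not spread alike within a cell state. In SCA1-High-FAPs, Bmp4, Bmp6, Bmpr2 and Id3 were all highest in replicate 4 and all lowest in replicate 3. Of these, Bmpr2 was almost level in replicates 2 and 3 (94.0 and 93.9 CPM), and Bmp6 had only 2 counts in replicate 3. Bmpr1a and Id2 were highest in that replicate 3. In SCA1-Low-FAPs, replicate 3 was highest for 5 members (Bmp6, Bmpr1a, Bmpr2, Chrdl1 and Id3) and lowest for Bmp4 and Id1. The coefficient of variation over 4 samples was 8.24% to 17.2% for the receptors, 19.5% to 39.0% for the Id genes in SCA1-High-FAPs and 13.7% to 32.6% in SCA1-Low-FAPs. It was 20.0% and 46.4% for Grem1 and 53.1% and 50.3% for Chrdl1 in the same order of cell states.

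**Figure D3:**
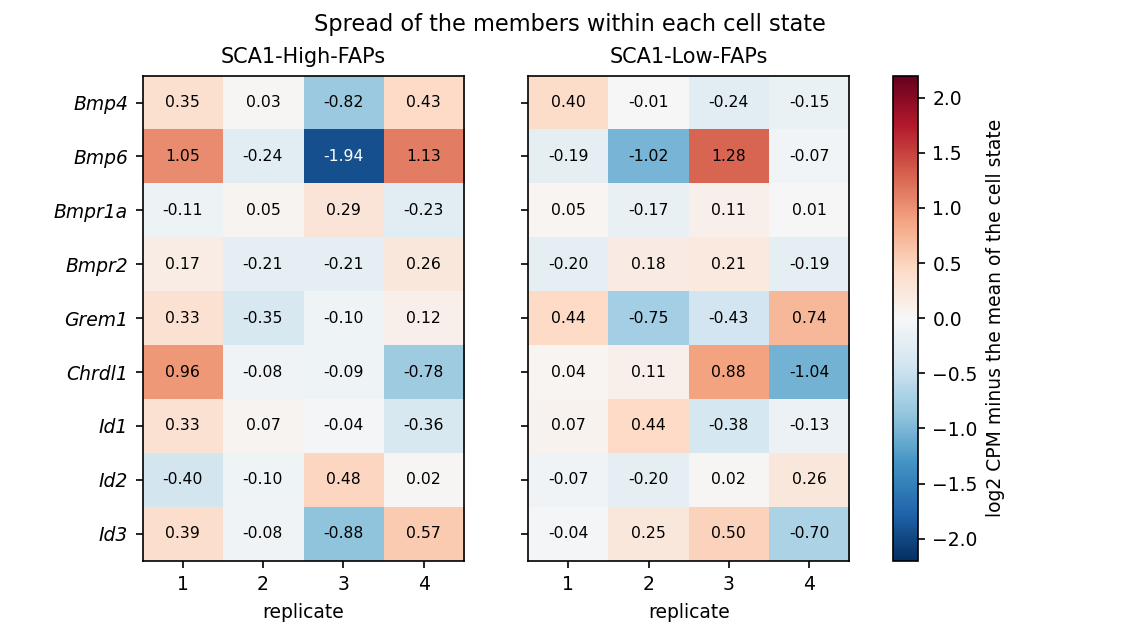
Deviation of each member from the mean of its cell state on the log2 CPM scale, for the 4 replicates of each cell state, with red above and blue below the mean. Replicate 3 of SCA1-High-FAPs is low for Bmp4, Bmp6 and Id3 (-0.82, -1.94 and -0.88), and Bmp6, which has few counts, varies most.

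For each tested member, the 2 genes with the most similar profile over the 8 samples were found by the root mean square difference of centred log2 CPM. Nearest to Grem1 were Pdpn, the membrane glycoprotein podoplanin (difference 0.27), and Il1rl1, the receptor of interleukin 33 (0.29), where the Grem1 profile itself deviated from its mean by 1.02. Pdpn averaged 172 CPM in SCA1-High-FAPs against 576 CPM. Nearest to Chrdl1, whose own deviation was 1.93, were Retn, which encodes the adipokine resistin (0.47), and Apoe, which encodes apolipoprotein E (0.54). Retn averaged 26.5 and 1.16 CPM and Apoe 841 and 62.1 CPM, with SCA1-High-FAPs first.

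The other members had flatter profiles, with deviations of 0.21 to 0.51. Their nearest genes were Ccdc137 and Mtfr1 for Bmp4, Setd5 and Atg12 for Bmpr1a, and H3f3b and Rps27 for Bmpr2. Those of the targets were Zcchc8 and Ndufb4 for Id1, Eapp and Frg1 for Id2, and Rpl10 and Rps3a1, both ribosomal protein genes, for Id3. Likeness over 8 samples is a description, and no member was among the nearest genes of another.

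A wider list of 65 BMP pathway genes, with the 9 members among them, put these values beside the rest of the pathway. Of the 39 tested, 3 were called with more mRNA in SCA1-Low-FAPs (Grem1, Fstl3 and Eng), 2 with more in SCA1-High-FAPs (Chrdl1 and Acvr2a) and 34 were not called. Among all 10181 tested genes, the called shares were 3.32% and 4.36% in the same order, or 7.68% in either direction. Calls by role, given below, are to be read beside these shares. The median log2 fold change was -0.07 over these 39 genes and 0.00 over all tested genes, and the median size was 0.37 against 0.30. A further 26 were too low to test, of which 11 (Bmp8b, Bmp10, Gdf2, Gdf7, Hfe2, Sostdc1, Sost, Cer1, Vwc2, Vwc2l and Tll2) had no count in any sample.

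**Figure D4:**
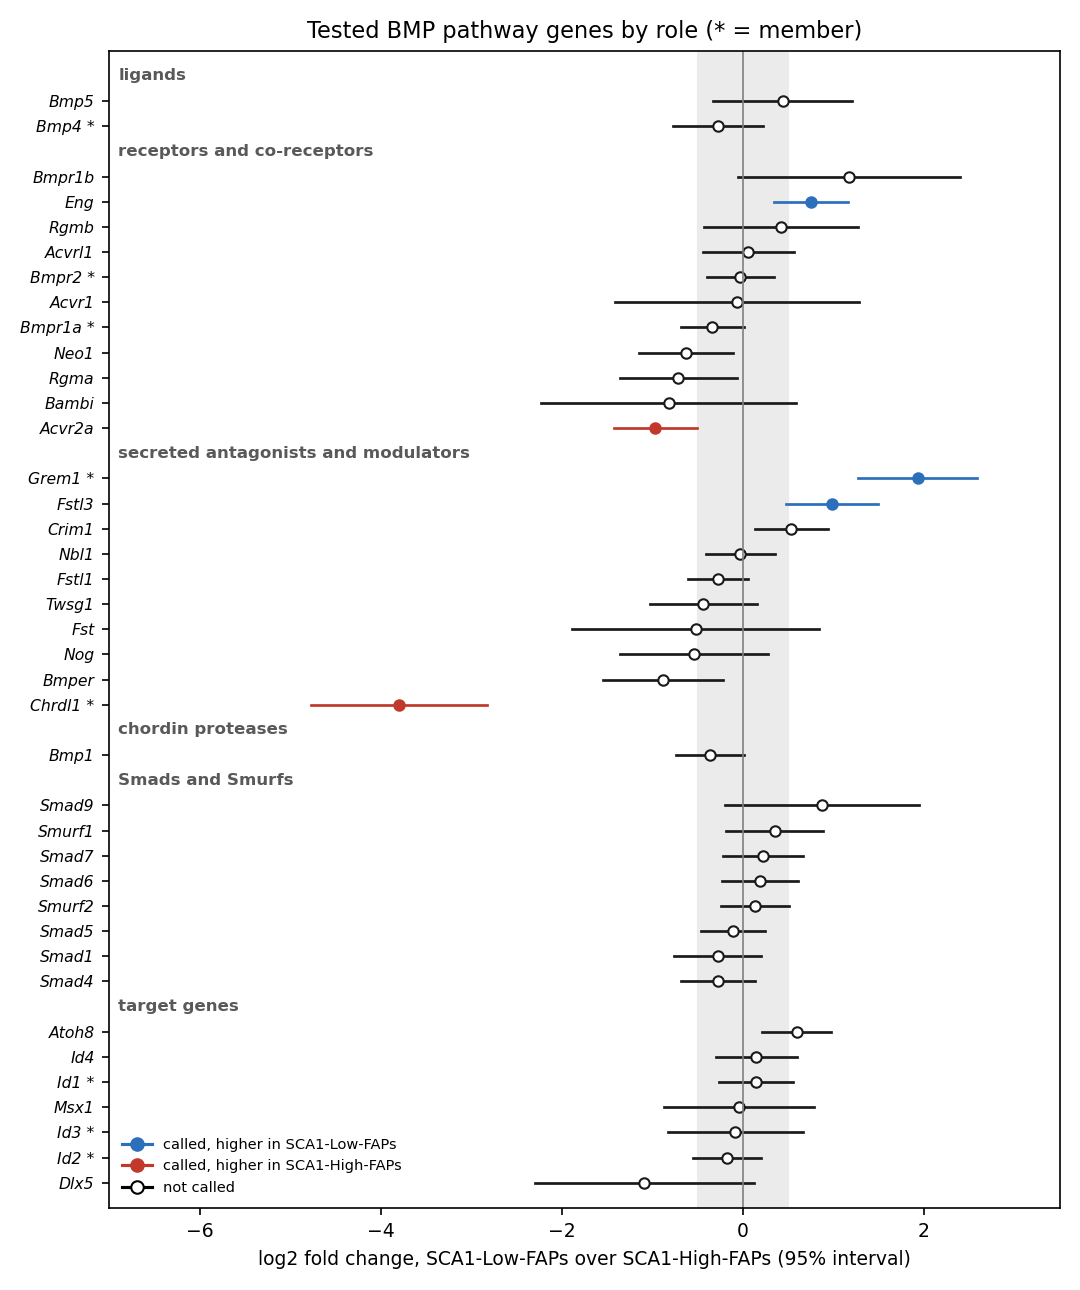
Log2 fold change between the cell states (above 0 where SCA1-Low-FAPs had more mRNA) with its 95% interval for the 39 tested pathway genes, grouped by role, with members starred, called genes filled and the band of -0.5 to 0.5 in grey. Chrdl1 at -3.80 and Grem1 at 1.93 lie farthest from 0, and 3 of the 5 called genes are secreted antagonists.

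Secreted antagonists and modulators held 3 of the 5 calls. Of 10 tested, 2 were called higher in SCA1-Low-FAPs, 1 the other way and 7 were not called. Fstl3, which binds activins, myostatin and some BMPs, had 30.1, 29.8, 33.8 and 31.5 CPM in SCA1-High-FAPs against 76.4, 49.5, 41.2 and 80.8 CPM in SCA1-Low-FAPs. All samples of SCA1-Low-FAPs were the higher ones (log2 fold change 0.98 ± 0.24, SE, adjusted p = 0.0177), and the call was lost without replicate 1 or replicate 4 of that cell state. As with Grem1, these replicates had the highest levels. Of the antagonists that were not called, Bmper, the BMP-binding endothelial regulator, had the largest difference, with 135, 81.4, 235 and 171 CPM in SCA1-High-FAPs against 54.1, 83.9, 119 and 78.1 CPM in SCA1-Low-FAPs (-0.89 ± 0.30 on the log2 scale, SE, adjusted p = 0.104 with edgeR and 0.0315 with DESeq2). Chrd, which encodes chordin itself, was too low to test with 35 counts in all.

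Among 13 receptors and co-receptors, 11 were tested and 2 were called, neither of them a member. Acvr2a, a type II receptor shared by activins and BMPs, had 112, 99.9, 82.7 and 95.7 CPM in SCA1-High-FAPs against 37.7, 55.0, 70.4 and 36.4 CPM in SCA1-Low-FAPs. The cell states did not overlap, with a log2 fold change of -0.97 ± 0.22 (SE, adjusted p = 0.0113). The adjusted p was 0.0532 without replicate 1 of SCA1-Low-FAPs.

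Eng, which encodes the co-receptor endoglin, had 55.6, 61.0, 53.0 and 50.6 CPM in SCA1-High-FAPs against 101, 120, 79.3 and 72.1 CPM in SCA1-Low-FAPs. All SCA1-Low-FAPs samples were higher (log2 fold change 0.75 ± 0.20, SE, adjusted p = 0.0241). The Eng call was lost without replicate 4 of SCA1-High-FAPs or replicate 1 or 2 of SCA1-Low-FAPs. Eng is often grouped with endothelial markers, which had few counts here. Pecam1, Cdh5 and Kdr had 0, 0 and 1 counts in SCA1-High-FAPs against 17, 11 and 7 in SCA1-Low-FAPs. Tek and Vwf went the other way, with 38 and 1 counts against 15 and 0. Their part in the Eng difference was not tested. Exons of Acvr2a and Eng overlap Orc4 and Fpgs on the opposite strand (412 and 380 counts in all), whose reads could be shared if strand was not used. Bmpr1b, another BMP type I receptor, had the largest difference that was not called, at 1.41 to 10.6 CPM in SCA1-High-FAPs against 6.77 to 12.5 CPM in SCA1-Low-FAPs (log2 fold change 1.17 ± 0.58, SE, adjusted p = 0.260). Without replicate 4 of SCA1-High-FAPs, the highest of its cell state at 10.6 CPM, the log2 fold change was 2.09 (adjusted p = 0.0526).

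Ligands, proteases, Smads and targets of the wider list gave no call in the main edgeR test. For ligands (2 tested), the chordin proteases (1 tested) and Smads and Smurfs (8 tested), 0 genes had an unadjusted p under 0.05 and DESeq2 also called 0. The largest differences there were 0.44 ± 0.36 for Bmp5, -0.37 ± 0.18 for the chordin-cleaving protease Bmp1 and 0.87 ± 0.51 for Smad9 (log2, SE), with adjusted p-values of 0.541, 0.250 and 0.350. Of the 7 tested targets, Dlx5 differed most (-1.09 ± 0.57, adjusted p = 0.293). Only Atoh8, a target singled out after its values were seen, had an unadjusted p under 0.05. It had 93.2 to 144 CPM in SCA1-High-FAPs against 130 to 212 CPM in SCA1-Low-FAPs, with a log2 fold change of 0.59 ± 0.18 (SE) and an adjusted p of 0.0551. DESeq2 called it, as did edgeR with no filter beyond 1 count and without replicate 3 of either cell state.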

How the data were processed

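Total RNA of 8 FAP samples was made into 3′ mRNA libraries. The authors trimmed the reads, aligned them with STAR to mm10, counted them with htseq-count on Ensembl genes and deposited raw counts per gene, without normalisation. Reads aligned to several positions (37.5% to 43.3% of all) were given to no gene and 13.3% to 16.4% of the unique ones fell on no gene, which stayed out of library sizes. Strand setting and molecular identifiers are not given in the sources used here. Counts on genes were 1880561 to 3985656 per sample.

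Positions are those of GENCODE M21 (GRCm38), matched for 31011 of 31053 genes. Cell states were compared with edgeR 4.0.16 (R 4.3.3): TMM factors, filterByExpr (minimum of 10 counts, 15 in total), robust quasi-likelihood test, Benjamini-Hochberg adjustment over all tested genes, thresholds of 0.05 and 0.5 on the log2 scale. SE is the size of the log2 fold change over the root of F. CPM values use TMM-scaled library sizes, and similar profiles used a prior count of 2. Fits were tested on simulated data. Alternatives were DESeq2 1.42.0, RLE factors, other filters and thresholds, the replicate number as a block, CPM on total counts, and each sample left out. Python 3.11.15, pandas 2.3.3 and matplotlib 3.10.9 made tables and figures.

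The 9 members, the pathway list and the marker lists were chosen with earlier results of these data known, and Grem1, Chrdl1 and Bmper stand in term lists that the study drew from these samples, so their tests are not independent evidence. A further pathway gene is not reported here. Named genes are the members, the called pathway genes, the largest uncalled difference in each role and the 2 nearest profiles. Chrd, Atoh8, Neo1 and the marker genes given with values were named after values were seen. The samples came from 4 mice, but no source used here says which came from which, and p-values measure the spread between these samples.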

Additional observations from a re-analysis of the deposited data

How the results depend on the processing

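Grem1 and Chrdl1 were called in the same direction under all 6 other fits and all 8 fits without 1 sample, and the counts of members called remained 1 in each direction under every threshold tried. In the wider list, the 3 genes called higher in SCA1-Low-FAPs and the 2 higher in SCA1-High-FAPs became 1 and 1 at an adjusted p under 0.01, and 1 to 4 and 1 to 4 when a sample was left out. The lowest counts (only Grem1 and Chrdl1) came without replicate 1 of SCA1-Low-FAPs. Without its replicate 4 or 2, or without replicate 4 of SCA1-High-FAPs, 2 genes were called higher in SCA1-Low-FAPs, and without its replicate 3, 4 were called higher in SCA1-High-FAPs, with Bmper and Neo1 added. Over all genes, 782 calls became 417 and 410 without replicates 1 and 4 of SCA1-Low-FAPs, and 1017 without replicate 3 of that cell state. The cause was not tested. Log2 fold changes near 0 crossed 0 when a sample was left out, all uncalled: Bmpr2 ran from -0.11 to 0.065, Id1 from -0.013 to 0.27, Id2 from -0.29 to 0.0054 and Id3 from -0.31 to 0.12. With the replicate block, 3 pathway genes were called higher in each cell state in edgeR and in DESeq2. In edgeR, Bmper gained a call (adjusted p = 0.0385). DESeq2 called Bmper with and without the block (0.0151 and 0.0315) and lost Atoh8 with it. Without a filter beyond 1 count, or without replicate 3 of either cell state, edgeR also called Atoh8. Deviations of same-numbered samples correlated at -0.050 to 0.0067, against -0.282 to 0.255 for other pairs across the cell states. No label gives pairs, and equal numbers were not taken as pairs in the main fit. SCA1-High-FAPs replicates 1, 2, 3 and 4 correlated best with SCA1-Low-FAPs replicates 2, 1, 4 and 3 (0.164, 0.131, 0.255 and 0.137). The reverse choice gave the same pairs. Whether these share a mouse is not known, and no fit used them as pairs. With CPM on total counts, mean levels moved by less than 1 SD. Leaving out 1 of 4 samples cannot move their mean by 1 SD, so it was no check of the levels. Depth limits Bmp6, and the 26 untested pathway genes.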
